A study of Mus musculus with 6 samples.

Results

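Esrrb encodes estrogen-related receptor beta, an orphan nuclear receptor that binds DNA in the absence of estrogen. In mouse embryonic stem cells it belongs to the naive pluripotency network with Nanog, Klf4 and Tfcp2l1, and inhibition of GSK3 raises its transcription by relieving repression by Tcf7l1. It is also known as a factor that stays bound to part of its sites on mitotic chromosomes. The peaks described here are those of Esrrb's own locus: all peaks in 6 lists that overlap the annotated gene (RefSeq gene 26380, plus strand, chr12:86361117-86521628, build mm10/GRCm38, 160512 bp) or the 50 kb on either side of it. There were 63 such peaks, and merging those that overlapped gave 25 regions of the 65324 that the 6 lists cover in the whole genome.

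The lists come from ATAC-seq, in which the Tn5 transposase inserts adapters into accessible DNA. All samples were CGR8 mouse embryonic stem cells, the untreated line that the series calls Cdt1-MD. They grew in serum-free N2 and B27 medium with leukemia inhibitory factor, the GSK3 inhibitor CHIR99021 at 3 µM and the MEK inhibitor PD184352 at 1 µM. The groups were named mito, LM and eG1-1, with 2 lists each. The title of the series speaks of mitotic exit, so the names were read in that order, but the labels do not spell them out, and Telo stands in place of LM in the names of the LM peaks. Cultures were not described as separate, so the spread between replicates may be technical.

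The lists held 20639 to 48396 peaks, with LM replicate 2 the shortest and eG1-1 replicate 2 the longest. The peak names share 1 element in replicate 1 of every group and another in replicate 2. It was read here as marking the sequencing run, which the sample labels do not state. The lists hold no read counts, so depth is unknown, and where a list shows nothing a peak may have gone uncalled. The titles of all 6 samples carry the mark 10K while the protocol speaks of 50000 cells, so the number of cells per library is not settled, and its part in the lengths of the lists was not tested. As a check of the cell type, peaks within 1 kb of a gene end were counted for 10 stem cell markers. They were found at 10 and 8 of these for mito, 6 and 4 for LM, and 3 and 7 for eG1-1, and eG1-1 replicate 1 had none at Pou5f1, Sox2 or Nanog. Markers of primitive endoderm had such peaks at 0 of 7 genes in every list but eG1-1 replicate 2, which had 1, Foxa2. Trophoblast markers had 1 to 3 of 9, fibroblast markers 1 to 5 of 10 and neural markers 2 to 6 of 6. The stem cell share was above the neural share in mito replicate 1, LM replicate 2 and eG1-1 replicate 2, and below it in the other lists. In eG1-1 replicate 1, 3 of 10 fibroblast markers had such a peak, as many as of the stem cell markers. The check thus did not set the stem cell markers apart in every list. The part that these differences between lists play in the values at Esrrb was not tested.

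RefSeq places a pair of transcription starts in the gene, the first at position 86361117 and an internal one 60.5 kb downstream at 86421644. Their upstream sequences are shown because peaks were called at one of the starts and not at the other. Each runs from 250 bases before the start to the last base before it, on the plus strand (RefSeq, GRCm38.p6), and capitals mark the motif matches given below.
Esrrb first start, chr12:86360867-86361116: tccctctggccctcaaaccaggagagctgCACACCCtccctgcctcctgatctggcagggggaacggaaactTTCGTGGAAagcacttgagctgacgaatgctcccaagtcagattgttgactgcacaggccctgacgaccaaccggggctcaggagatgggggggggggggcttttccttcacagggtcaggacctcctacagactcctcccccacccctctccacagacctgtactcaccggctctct
Esrrb internal start, chr12:86421394-86421643: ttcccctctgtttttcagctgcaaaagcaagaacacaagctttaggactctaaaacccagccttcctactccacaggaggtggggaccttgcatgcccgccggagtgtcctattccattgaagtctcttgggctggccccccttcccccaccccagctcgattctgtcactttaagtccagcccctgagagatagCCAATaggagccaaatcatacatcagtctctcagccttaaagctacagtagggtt

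No list had a peak within 1 kb of the first start. The nearest peak lay 10.9 kb away in LM replicate 2 and 31.0 to 34.1 kb away in the other 5 lists. At the internal start, 3 of the 6 lists had a peak within 1 kb. In eG1-1 replicate 2 it ran from 86421350 to 86421647 and so covered the start itself and all of the second sequence above, with a score of 61. The score is the authors' own whole number for each peak, used here as a rank within its list, and 61 stood at the 54.0th percentile of that list. The peaks of mito replicate 1 (score 25) and eG1-1 replicate 1 (score 30) began 78 and 86 bp after the start and ranked low, at the 8.25th and 22.2nd percentiles. Mito replicate 2 and both LM lists had none there, their nearest peaks lying 11.6 kb away. Both eG1-1 lists and mito replicate 1 thus had a peak within 1 kb of the internal start, and neither LM list did. The peak of eG1-1 replicate 2 lay 0.074 kb from those of the other lists and formed a separate region. The region counts below therefore do not show this split between eG1-1 and LM. How often other starts show it was not counted. The gene's 3′ end had no peak within 1 kb in any list either.

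These short motifs were searched on both strands of the sequences above: AAGGTCA, the core of the site that estrogen-related receptors bind, ATGCAAA for octamer factors such as Oct4, CATTGT for Sox factors, GGGTGTG for Klf factors and TTCNNNGAA for Stat factors. The sequence before the internal start held none of them. The one before the first start held GGGTGTG, read on the minus strand, and TTCNNNGAA. Of 32851 RefSeq promoter windows of the same length, 6.93% held the Klf motif and 7.02% the Stat motif, and 4.08%, 4.12% and 10.7% held the receptor, octamer and Sox motifs. CCAAT, a box bound by NF-Y and searched after the sequences had been seen, lay 55 bases before the internal start and occurs in 33.8% of the windows. The internal window had a GC content of 52.0% and 3 CpG pairs, against 60.8% and 6 for the first and medians of 52.4% and 6 over all windows. No genome sequence was used here, so the other regions were not searched.

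The peaks lay mostly in the part of the gene behind the internal start. Of the 25 regions, 20 were inside the gene by their centre, 4 in the upstream flank and 1 in the downstream flank. Of the interior regions, 17 lay after the internal start, 1 spanned it and 2 lay before it. The longest stretches with no peak in any list were 47.9 kb across the 3′ end of the gene and 44.8 kb across the first start. No other protein-coding gene reaches into the window. It also holds the lncRNA Gm40483, which overlaps the first start, the end of the lncRNA Gm32666 and the pseudogene Gm52007. Exons were not used here, so regions are placed by their distance from the first start, with a plus sign for downstream.

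**Figure D1:**
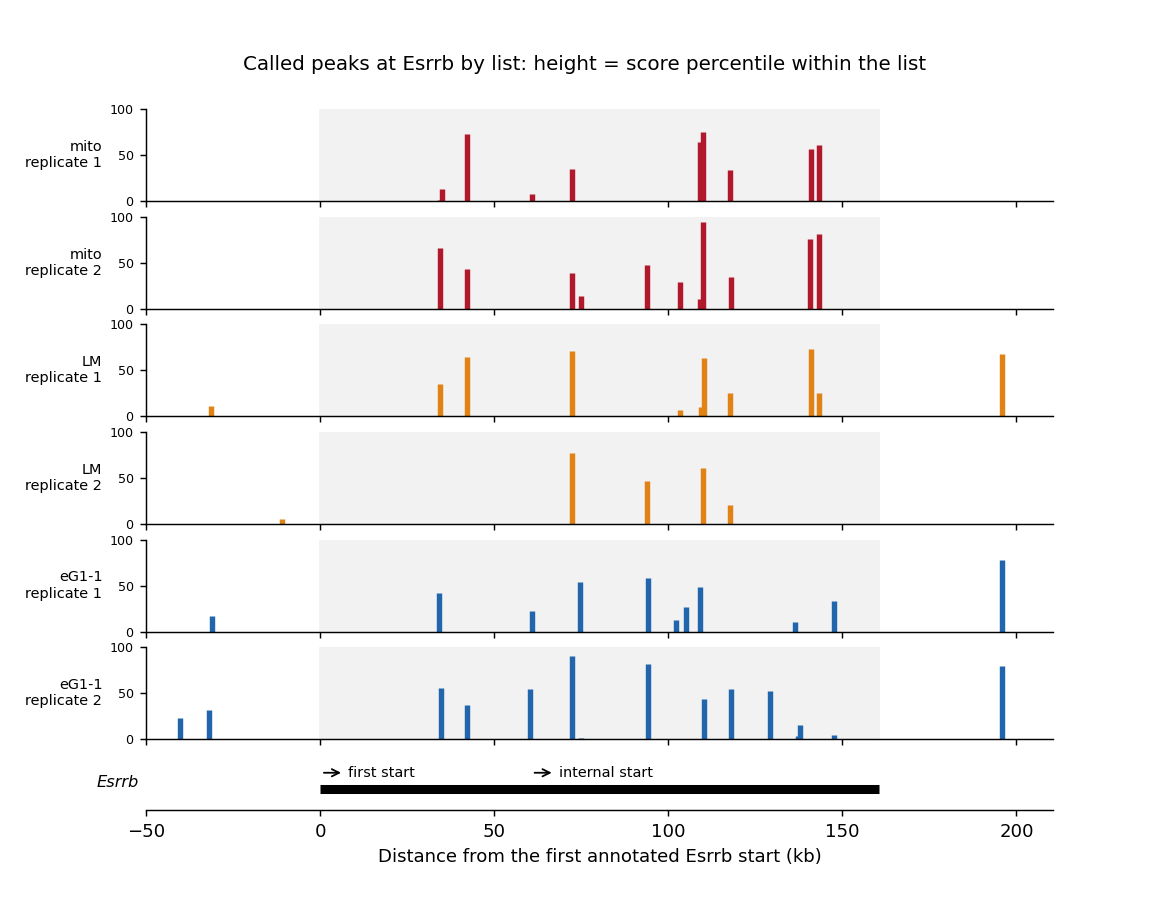
Peaks of each of the 6 lists along the Esrrb gene (grey) and 50 kb on either side, by distance from the first annotated start in kb; the height of a line is the percentile of the peak's score within its list. The mito lists have peaks inside the gene and none in the flanks, and the first start lies in a stretch without peaks in every list.

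No region at Esrrb was held by all 6 lists, while 15.5% of the regions of the genome were. At the other end, 10 of the 25 regions (40.0%) were held by a single list, close to the 42.4% over all regions. Between these, 4 regions were held by 5 lists, 3 by 4, 4 by 3 and 4 by 2.

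The region at +72.3 kb (chr12:86433213-86433668) had scores of 42 and 50 in the mito lists, 78 and 81 for LM and 170 in eG1-1 replicate 2, with no peak in eG1-1 replicate 1. Within their lists these stood at the 34.6th, 39.4th, 70.7th, 77.5th and 90.9th percentiles. The rank was thus lowest in mito and highest in the single eG1-1 list that held the region. The region at +110.2 kb (chr12:86470902-86471820) showed the opposite order. Its scores were 89 and 186 for mito, 68 and 57 for LM and 50 in eG1-1 replicate 2, at the 75.6th, 94.3rd, 63.8th, 61.3rd and 44.1st percentiles. It held the highest score of the locus in both mito lists, and again eG1-1 replicate 1 had no peak there.

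The region at +117.9 kb (chr12:86478502-86479560) falls outside the rule for named regions and is given because the same list lacked it. Its scores were 41 and 45 for mito, 35 and 29 for LM and 61 in eG1-1 replicate 2, and none lay above the 54.0th percentile. Of the 4 regions held by 5 lists, eG1-1 replicate 1 was therefore the missing list in 3. Over the genome, 5298 regions were held by exactly 5 lists, of which 16.8% lacked eG1-1 replicate 1 and 40.4% lacked LM replicate 2. The fourth, at +34.5 kb (chr12:86395055-86396229), was the one without LM replicate 2. It scored 29 and 81 in the mito lists, 42 in LM replicate 1 and 42 and 63 for eG1-1. In mito replicate 1 this stretch was called as 2 separate peaks, and in mito replicate 2 as 1 broad peak.

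Regions held by 4 lists divided the groups in different ways. At +42.2 kb (chr12:86402781-86403859) the scores were 83 and 53 in the mito lists, 69 in LM replicate 1 and 44 in eG1-1 replicate 2. At +94.0 kb (chr12:86454650-86455549) they were 57 in mito replicate 2, 45 in LM replicate 2, and 56 and 116 in the eG1-1 lists. The first was missing from 1 list each of LM and eG1-1, and the second from 1 list each of mito and LM. The third, at +109.2 kb and less than 1 kb from the region at +110.2 kb, was held by both mito lists, LM replicate 1 and eG1-1 replicate 1. In this place eG1-1 replicate 1 had its peak (score 47) and eG1-1 replicate 2 had its own in the neighbouring region.

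**Figure D2:**
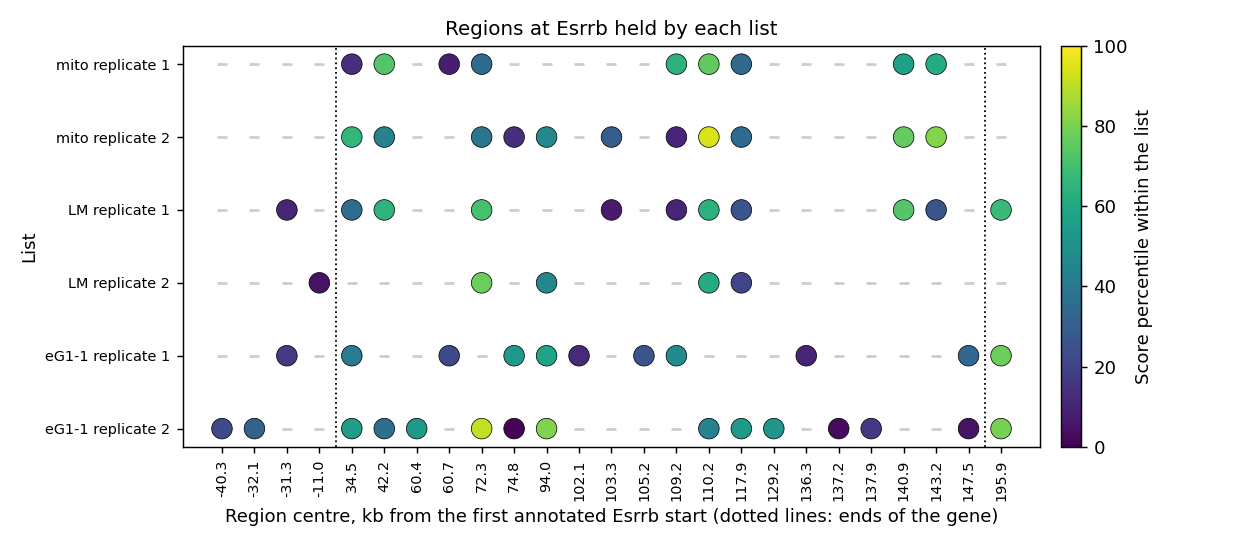
The 25 regions at Esrrb in genome order (x axis, centre in kb from the first annotated start) against the 6 lists (y axis); a disc marks a called peak, coloured by its score percentile within the list, and a dash marks none. No column is full, and the columns at 140.9 and 143.2 kb hold discs in both mito lists and LM replicate 1 but in neither eG1-1 list.

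The comparison of mito with eG1-1 asked which parts of the locus were called in one group alone. A neighbouring pair of regions near the 3′ part of the gene was called in both mito lists but in neither of the eG1-1 lists. The region at +140.9 kb (chr12:86501704-86502312) scored 61 and 100 in the mito lists and 83 in LM replicate 1, at the 56.8th, 76.2nd and 73.2nd percentiles. The one at +143.2 kb (chr12:86504088-86504629) scored 66 and 114 in the mito lists, at the 61.6th and 81.5th percentiles, and 35 in LM replicate 1, at the 25.9th. LM replicate 2 had neither. In each case the peaks of the mito lists ranked above the middle of their lists. These were 2 of 25 regions (8%), where the same rule called 1.85% of all regions. They lie about 2 kb apart and are not independent, and no test was made of this count. With eG1-1 replicate 2 left out there were 6 such regions of 19 (31.6%, against 8.18% of all regions). Without eG1-1 replicate 1 there were 3 of 22 (13.6%, against 2.95%). Leaving out a mito list brought the shares closer to each other. There were 3 of 25 without mito replicate 1 (12%, against 7.99%) and 2 of 26 without mito replicate 2 (7.69%, against 5.78%). Among the strongest 20639 peaks of each list there were 5 of 12 (41.7%, against 5.8% of all regions). These include the regions at +42.2, +110.2 and +117.9 kb. There the deposited list of eG1-1 replicate 2 had peaks, with scores of 44, 50 and 61, that the cut removed. Not all of the 5 were therefore without a called peak in eG1-1.

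In the other direction, 2 regions were held by both eG1-1 lists and neither mito list, or 8% of the locus against 8.07% of all regions. The stronger lay in the downstream flank at +195.9 kb, 35.4 kb behind the 3′ end (chr12:86556751-86557332). Its scores were 85 and 109 for eG1-1 and 74 in LM replicate 1, at the 77.6th, 79.1st and 67.9th percentiles. For eG1-1 replicate 1 this was the highest score at the locus. The other, at +147.5 kb (chr12:86508458-86508817), scored 36 and 21 in the eG1-1 lists, at the 33.0th and 4.80th percentiles, and was absent from the other 4 lists. One of this pair therefore rested on weak peaks, and the share at the locus was close to that of the whole genome. Leaving out 1 list raised the share over the genome in each case. At the locus the count stayed at 2 of 25 regions without mito replicate 1 (8%, against 10.4% of all regions) and rose otherwise. Without eG1-1 replicate 1 there were 8 of 22 regions (36.4%, against 35.5% of all regions), without eG1-1 replicate 2 there were 6 of 19 (31.6%, against 21.6%), and without mito replicate 2 there were 4 of 26 (15.4%, against 13.7%).

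Comparisons with LM gave fewer such regions. Regions called in both eG1-1 lists but in neither of LM numbered 2, the one at +147.5 kb and one at +74.8 kb (chr12:86435671-86436102, scores 51 and 16 for eG1-1 and 30 in mito replicate 2). Over all regions the rule called 9.38%. No region was held by both mito lists and neither LM list (3.56% over all regions), by both LM lists and neither mito list (0.905%), or by both LM lists and neither eG1-1 list (0.459%). LM replicate 2 held 5 regions and LM replicate 1 held 11, with 3 in common, so few regions could be called for LM on both sides.

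These counts with LM depended on single lists, since a group then rests on the list that is left. Regions of mito and not LM numbered 5 of 25 without LM replicate 1 (20%, against 9.66% of all regions), 2 of 26 without mito replicate 2 (7.69%, against 9.05%) and 1 of 25 without mito replicate 1 (4%, against 14.1%). Those of eG1-1 and not LM came to 8 of 22 without eG1-1 replicate 1 (36.4%, against 39.4%), 6 of 19 without eG1-1 replicate 2 (31.6%, against 23.7%) and 4 of 25 without LM replicate 1 (16%, against 15.4%). Those of LM and not mito were 2 of 24 without LM replicate 2 (8.33%, against 6.31%) and 1 of 25 without LM replicate 1 (4%, against 6.16%). Those of LM and not eG1-1 were 3 of 24 without LM replicate 2 (12.5%, against 5.2%), 3 of 19 without eG1-1 replicate 2 (15.8%, against 3.26%) and 1 of 25 without LM replicate 1 (4%, against 3.36%).

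Replicates agreed best in mito. The mito lists shared 8 regions, 88.9% of those of replicate 1 and 72.7% of those of replicate 2, where the shares over the genome were 79.1% and 63.3%. The eG1-1 lists shared 5 regions at Esrrb, 45.5% and 33.3% of theirs, against 76.9% and 50.8% over the genome. In LM the 3 shared regions made up 27.3% and 60.0%, against 57.1% and 66.7%. Of the 10 regions held by a single list, 6 were in eG1-1 replicate 2, 3 in eG1-1 replicate 1 and 1 in LM replicate 2. Over the genome 51.5% of the 27679 single-list regions were in eG1-1 replicate 2, the longest list, 18.7% in eG1-1 replicate 1 and 5.24% in LM replicate 2. Of these single-list regions, 2 lay in the upstream flank in eG1-1 replicate 2, with scores of 34 and 41, and that of LM replicate 2 lay there too, with a score of 19. The other 2 regions not yet described were at −31.3 kb, with scores of 26 in LM replicate 1 and 27 in eG1-1 replicate 1, and at +103.3 kb, with 42 in mito replicate 2 and 22 in LM replicate 1.

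Summed over the locus, the lists held 10 and 11 peaks for mito, 11 and 5 for LM and 11 and 15 for eG1-1. The groups overlapped, with eG1-1 replicate 1 level with mito replicate 2 and LM replicate 1. Longer lists tended to hold more peaks around a gene, though not around every gene, so the counts were also set against the list. Per 10000 peaks of the list, there were 4.07 and 3.61 at Esrrb for mito, 4.61 and 2.42 for LM and 3.43 and 3.10 for eG1-1. On this scale both eG1-1 values lay below both mito values, and LM held the highest and the lowest value. The exact (Clopper-Pearson) 95% intervals, which cover counting error only, overlapped throughout, from 1.95 to 7.48 in mito replicate 1 and from 1.73 to 5.11 in eG1-1 replicate 2. The slope over mito, LM and eG1-1 was −0.29 per step and failed the exact permutation test (two-sided p = 0.533, adjusted p = 0.533 over 5 trends). The slope was −0.85 among the strongest 20639 peaks of each list, −0.65 at a score of at least 50, −0.60 with a flank of 20 kb and −0.19 without mito replicate 1 (exact permutation p = 0.133, 0.2, 0.156 and 0.8).

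Inside the gene the counts were 10 and 11 for mito, 9 and 4 for LM and 9 and 12 for eG1-1. Per 10000 peaks these came to 3.84 ± 0.32 for mito, 2.85 ± 1.30 for LM and 2.64 ± 0.23 for eG1-1 (SD, n = 2 each). Both mito values, 4.07 and 3.61, lay above both eG1-1 values, 2.80 and 2.48. This gave a slope of −0.60 per step (two-sided exact permutation p = 0.2, adjusted p = 0.5). Over all protein-coding genes with an interior peak, both mito values lay above both eG1-1 values in 25.9%, so this order is common. Among the strongest 20639 peaks of each list, the interior counts were 7 and 8 for mito, 7 and 4 for LM and 4 and 2 for eG1-1, and the same order held in 8.63% of genes (slope −1.09, exact permutation p = 0.0889). This cut took eG1-1 replicate 2, the longest list, from 12 interior peaks to 2 and left LM replicate 2, the shortest, at 4. Before any cut or scaling, the mean interior count was 10.5 for mito and 10.5 for eG1-1. With scores of at least 50 the counts were 5 and 7, 4 and 2, and 2 and 7, and the slope of −0.90 per step had an exact permutation p = 0.0444, not adjusted, with 13.1% of genes in the same order. The call thus rests on the score limit.

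The flanks showed the reverse. They held no peak in either mito list, 2 and 1 for LM and 2 and 3 for eG1-1. Per 10000 peaks this was 0.66 ± 0.25 for LM and 0.62 ± 0.0022 for eG1-1 (SD, n = 2 each). This gave a slope of 0.31 per step (two-sided exact permutation p = 0.0889, adjusted p = 0.444). Over all protein-coding genes with a peak in the flanks, 14.7% had both eG1-1 values above both mito values. Apart from the region at +195.9 kb, the flank peaks had scores between 19 and 41. With a flank of 20 kb a single flank peak remained, in LM replicate 2, and the slope came to 0.

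**Figure D3:**
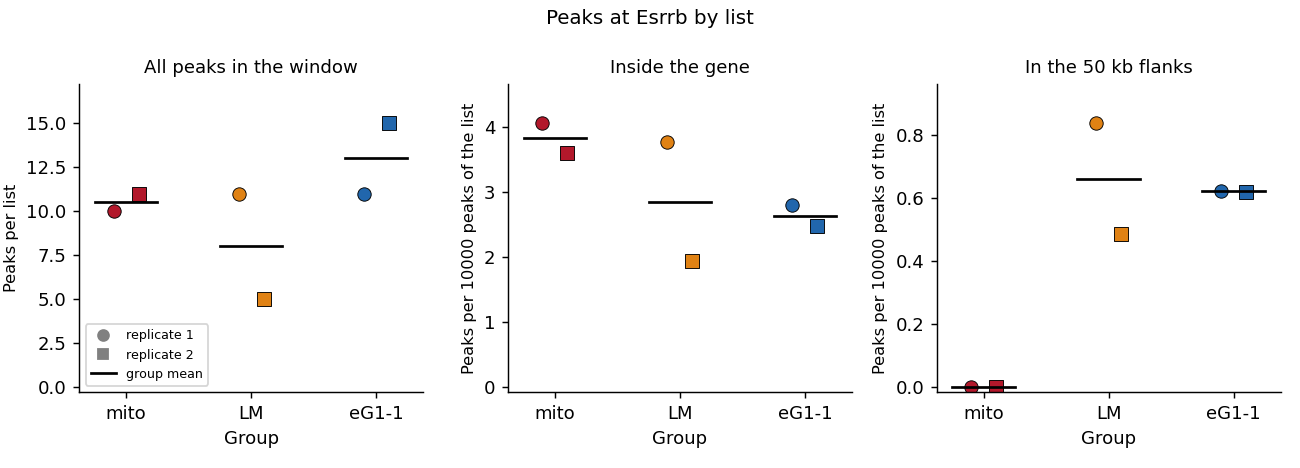
Peaks in the Esrrb window by group: the number of peaks per list (left), and peaks inside the gene (middle) and in the 50 kb flanks (right) per 10000 peaks of the list; circles are replicate 1, squares replicate 2 and lines the group means. Inside the gene the mito values (4.07 and 3.61) lie above the eG1-1 values (2.80 and 2.48), and in the flanks both mito values are 0.

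Peak width and rank were compared in the same way. Peaks at Esrrb had a median width of 462 and 542 bp for mito, 433 and 315 bp for LM and 311 and 332 bp for eG1-1, so that both mito values lay above both eG1-1 values. The medians of the whole lists were 456 and 503, 459 and 336, and 340 and 410 bp, which gives the same order. The length covered at Esrrb was 351 and 390 bp per Mb covered by the list in mito, 448 and 194 for LM and 292 and 282 for eG1-1. Its slope of −41.8 per step had an exact permutation p = 0.422 (adjusted p = 0.528). It was −87.1 among the strongest peaks, −73.3 with a flank of 20 kb and −19.5 with one of 100 kb (exact permutation p = 0.178, 0.2 and 0.733). The median score percentile of the peaks at Esrrb was 45.7 and 43.8 for mito, 35.0 and 46.6 for LM and 33.0 and 44.1 for eG1-1 (slope −3.09, exact permutation p = 0.311, adjusted p = 0.519). The direction turned among the strongest peaks (4.12, exact permutation p = 0.578), and the slope was −0.83 without eG1-1 replicate 1, −5.58 without eG1-1 replicate 2 and −5.89 with a flank of 100 kb (exact permutation p = 0.8, 0.233 and 0.267). The groups overlapped, and in every list the median peak of the locus ranked below the middle of the list.

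Set beside the 21887 protein-coding genes read in the same way, Esrrb had many peaks for a gene and a window of 260.5 kb to hold them. In 5 lists 97.2% to 99.4% of the windows held fewer peaks, and 83.5% in LM replicate 2. Per 100 kb of window, Esrrb had 3.84 and 4.22 peaks for mito, 4.22 and 1.92 for LM and 4.22 and 5.76 for eG1-1. On that scale 62.1% to 84.1% of windows lay lower. The mean of eG1-1 minus that of mito was −0.58 peaks per 10000 for Esrrb and −0.07 for the median of the 19254 windows with a peak, and 16.3% of these windows lay lower than Esrrb. Both mito values above both eG1-1 values, as at Esrrb, was the order in 28.3% of windows, and the reverse in 16.3%.

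**Figure D4:**
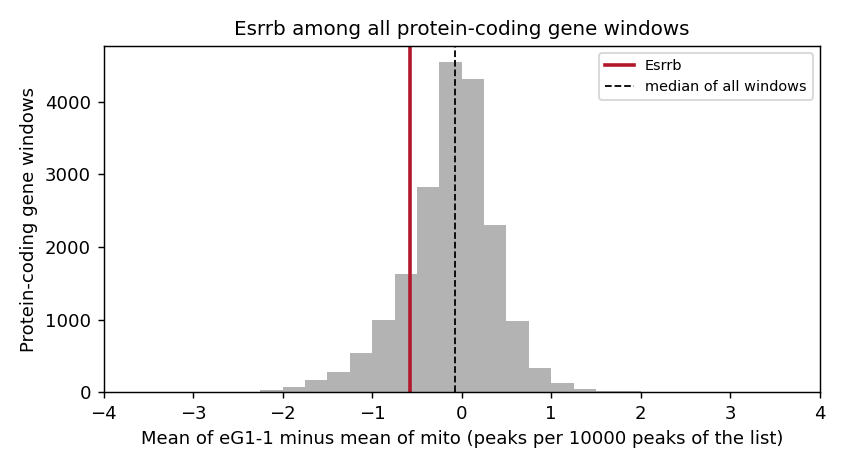
Histogram of the mean of eG1-1 minus the mean of mito, in peaks per 10000 peaks of the list (x axis), over the 19254 protein-coding gene windows with a peak (y axis, number of windows). Esrrb (solid line) lies at −0.58, to the left of the median (dashed line) at −0.07 and within the main body of the distribution.

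The other genes of the naive pluripotency network were read over the gene and 50 kb on either side. Of 24 such genes, 7 had both mito values above both eG1-1 values (29.2%, against 28.3% of all windows) and 1 the reverse (4.17%, against 16.3%). The median of the eG1-1 minus mito difference was −0.19 peaks per 10000 in the list and −0.07 over all windows. The largest differences among the 7 were at Fgf4, which encodes a growth factor that stem cells secrete, with 3.96 ± 0.43 peaks per 10000 for mito and 2.07 ± 0.29 for eG1-1 (SD, n = 2 each). Sall4, a zinc finger factor of the network, had 2.74 ± 0.15 and 1.19 ± 0.36, and Nanog, a homeobox factor that activates Esrrb, had 2.41 ± 0.62 and 1.09 ± 0.22. The gene with the reverse order was Ncoa3, a coactivator that Esrrb recruits, with 2.53 ± 0.13 for mito and 3.26 ± 0.23 for eG1-1. Tcf7l1, the repressor of Esrrb, has a window of 263 kb, close in length to that of Esrrb. Its peaks numbered 10 and 11 for mito, 12 and 8 for LM and 10 and 22 for eG1-1. Those of Esrrb numbered 10 and 11, 11 and 5, and 11 and 15, so the genes matched in mito alone. The lowest values of the list were at Nr0b1, a nuclear receptor without a DNA-binding domain, which held 0 to 2 peaks in each list. The eG1-1 minus mito differences of these genes share their lists with that of Esrrb and are no independent support for it.

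**Figure D5:**
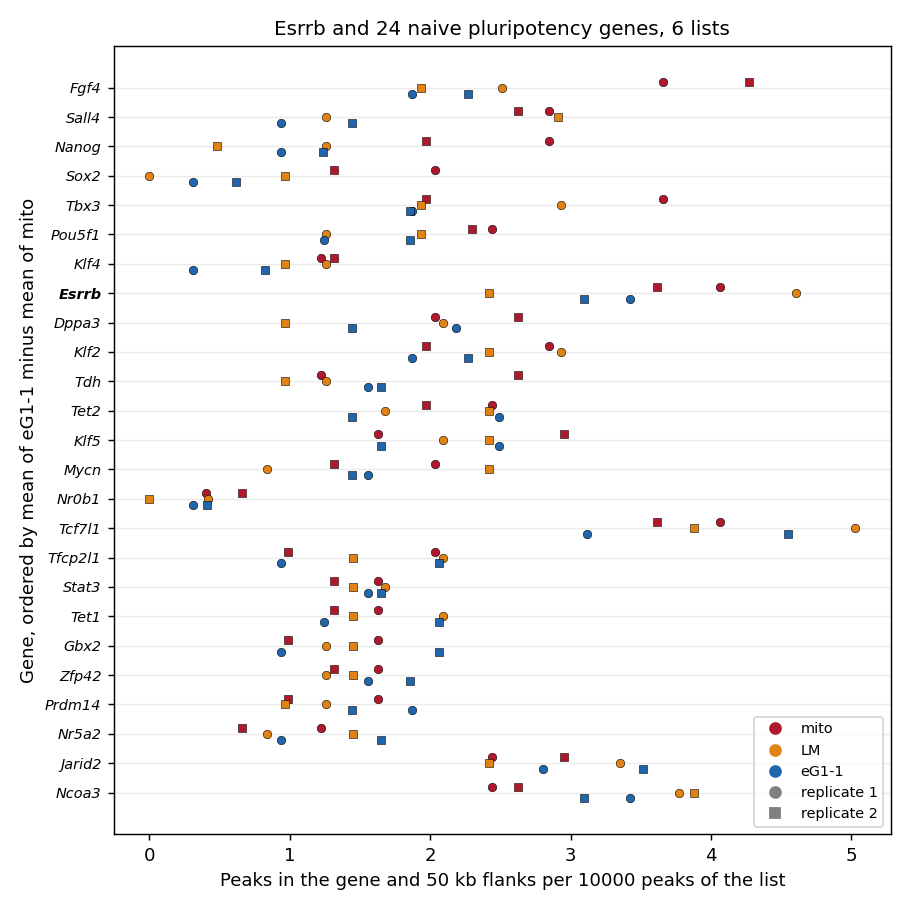
Peaks in the gene and 50 kb flanks per 10000 peaks of the list (x axis) for Esrrb and 24 naive pluripotency genes (y axis), ordered by the mean of eG1-1 minus the mean of mito; colours are groups, circles replicate 1 and squares replicate 2. Fgf4 and Sall4 are at the top with mito to the right of eG1-1, Esrrb is the eighth gene, and Ncoa3 is at the bottom with the order reversed.

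Among 9 related nuclear receptors, the paralogue Esrra had 4 and 6 peaks for mito, 4 and 4 for LM and 6 and 6 for eG1-1. Esrrg, the third estrogen-related receptor, had 1 to 3 peaks per list in a window of 706 kb. Both had fewer peaks than Esrrb in all 6 lists, by 1 peak for Esrra in LM replicate 2, and the windows differ in length. Rarg, a retinoic acid receptor, was the 1 member with both mito values above both eG1-1 values (4.37 ± 0.14 and 1.97 ± 0.14 peaks per 10000, SD, n = 2 each). This was 11.1% of the list, against 28.3% of all windows. The reverse order was found in 3 members, Esr1, Nr6a1 and Rxra (33.3%, against 16.3% of all windows). The lowest was Esr1, an estrogen receptor, whose order rests on 1 peak in each eG1-1 list and 0 in each mito list.

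The genes whose peaks were spread over the 6 lists most like those of Esrrb were found among 5095 windows that held at least 31.5 peaks over the lists and did not touch that of Esrrb. Likeness was the sum over the 6 lists of the absolute differences in the share of peaks per 10000. The closest were Mrpl58 (0.0395), Braf (0.0432), Cdr2l (0.0456), Ankrd12 (0.0474) and Kcnj6 (0.0505). Mrpl58 and Cdr2l are neighbours on chromosome 11 whose windows overlap, so they are largely the same peaks. Braf, a kinase of the ERK pathway, had 6 and 6 peaks for mito, 6 and 3 for LM and 6 and 8 for eG1-1. As at Esrrb, the lowest count was that of LM replicate 2 and the highest that of eG1-1 replicate 2, the shortest and the longest list. Per 10000 peaks, the highest value of both genes was that of LM replicate 1, 2.51 for Braf and 4.61 for Esrrb. These genes were picked for their likeness to Esrrb over the lists and are no support for its values.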

How the data were processed

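Each sample had 1 deposited list of 5 columns without header: chromosome, start, end, peak name and a whole-number score that is the authors' own, lowest value 13. The score's scale, the calling threshold and any Tn5 shift of reads: not given in the sources used here. Tools listed without roles in the submitters' processing notes were MACS2 2.2.4, bedtools, deepTools 3.5.1, Picard, SAMtools 1.10 and STAR 2.7.0e, on builds mm10 and GRCm38. Peak names show calling per sample on paired-end fragments.

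With Python 3.11.15, numpy 2.4.6, pandas 2.3.3 and scipy 1.17.1, peaks overlapping by at least 1 bp were merged into regions. A percentile is a score's mid-rank within its list. Slopes were tested two-sided by exact permutation over 90 assignments (smallest p = 0.0222), with Benjamini-Hochberg adjustment over 5 trends. The weights leave LM out of the slope. A comparison of 2 lists with 2 cannot go below an exact p of 0.333. The planned percentile trend over regions held by all 6 lists had no region and was replaced by all peaks of the window, a choice made after the data had been seen. Named regions were those held by both lists of one group and neither of another and the 8 with the highest scores; others named were chosen after their values were seen. From gene lists, the highest, the lowest and those with groups apart were named, the last by size of difference. The locus and gene lists were chosen with earlier results of these data known. Counting and merging were tested on simulated data. Genes came from RefSeq, GRCm38.p6. Alternatives were list length, score limit, flank, overlap, a replicate block and each list left out.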

Additional observations from a re-analysis of the deposited data

How the results depend on the processing

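No slope passed 0.05 under the list length, score and flank settings, except that of peaks inside the gene at a score of at least 50 (−0.90 per step, exact permutation p = 0.0444). The slope of the median score percentile turned to 4.12 among the strongest peaks of each list, where the percentile of a longer list starts higher by construction. With 1 list left out, slopes ran from −0.38 to −0.19 for all peaks, −49.1 to −32.2 for covered length, −0.72 to −0.45 inside the gene, 0.26 to 0.36 in the flanks and −5.58 to −0.83 for the percentile. None passed, but without an LM list the smallest possible p is 0.0667, which could not pass, and without a mito or eG1-1 list it is 0.0333. Same-numbered lists share the element of the peak names that was read as the run. The deviations of same-numbered lists over all regions correlated at 0.0328, 0.0324 and 0.0141. The part of the run in the values at Esrrb was not tested. With the replicate number as a block, the slopes are the same by construction (−0.29 for all peaks, exact permutation p = 0.444), and with a smallest possible p of 0.0556 the block could not pass the threshold.

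Among the strongest peaks of each list, 5 of 12 regions were of both mito lists and neither of eG1-1 (41.7%, against 5.8% of all regions). At +42.2, +110.2 and +117.9 kb this came from the cut, which removed called peaks of eG1-1 replicate 2. Those of LM and not eG1-1 numbered 2 (16.7%, against 3.12%). Those of eG1-1 and not mito numbered 1 (8.33%, against 5.19%), and those of eG1-1 and not LM 0 (against 4.01%). At a score of at least 50, 3 of 13 regions were of mito and not eG1-1 (23.1%, against 2.8% of all regions). Among them was the region at +42.2 kb, where eG1-1 replicate 2 had a peak with a score of 44. Those of mito and not LM numbered 1 (7.69%, against 5.12%). Those of eG1-1 and not mito numbered 1 (7.69%, against 8.11%), and those of eG1-1 and not LM 1 (7.69%, against 10.6%). With a flank of 20 kb, those of eG1-1 and not mito numbered 1 of 21 (4.76%, against 8.07% of all regions). A flank of 100 kb and an overlap of 100 bp changed none of the 6 counts. With 1 list left out, a group rests on a single list and the counts ranged from 0 to 5 for mito and not LM (highest without LM replicate 1), 2 to 6 for mito and not eG1-1 (without eG1-1 replicate 2), 0 to 2 for LM and not mito (without LM replicate 2), 0 to 3 for LM and not eG1-1 (without LM replicate 2 or eG1-1 replicate 2), 2 to 8 for eG1-1 and not mito and 3 to 8 for eG1-1 and not LM (both without eG1-1 replicate 1). The shares of all regions beside the highest counts are given with the comparisons above. The cause of these shifts was not tested.

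No region was held by all 6 lists in the window, so the planned percentile trend had a value only with a flank of 100 kb (9.86 over 1 region, exact permutation p = 0.711) or with 1 list left out: 4.22 over 1 region without LM replicate 2 and 10.9 over 3 regions without eG1-1 replicate 1 (exact permutation p = 0.733 and 0.2).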

Other observations

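Between 50 and 100 kb from Esrrb the lists held 3 more regions, and 1 of them was the only region within 100 kb of the gene that all 6 lists held. It lies 55.4 kb before the first start, between Gpatch2l and Esrrb (chr12:86305340-86306104). Its scores were 63 and 159 for mito, 60 and 25 for LM and 164 and 222 for eG1-1. Within the lists these stood at the 58.5th and 91.5th percentiles in mito, the 57.5th and 12.1th in LM and the 94.4th and 95.1st in eG1-1. Both eG1-1 lists ranked it above the other 4 lists, and each eG1-1 list ranked it above all of its own peaks inside Esrrb. The trend of its percentile failed the two-sided exact permutation test (slope 9.86 per step, p = 0.711). The region was singled out after its values were seen.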
